A study of Mus musculus with 8 samples.

Results

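The genes described here are 10 antiviral effectors that interferons induce: Ifit1, Ifit2, Ifit3, Isg15, Usp18, Rsad2, Mx1, Mx2, Ifi44 and Cmpk2. They were chosen by name, as the non-control probes whose gene name in the scanner files is 1 of these 10. That gave 12 probes of the 55681 on the array, with 2 probes each for Isg15 and Cmpk2. All 12 probes were well above background on all 8 arrays, so every one of the 10 genes is among the 23927 genes tested.

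Liver RNA was measured in 4 samples given AdLeXis, an adenovirus carrying the long non-coding RNA LeXis, and in 4 samples given AdGFP, an adenovirus carrying green fluorescent protein. The mice were bl6 animals aged 12 weeks and fed chow. RNA was isolated from liver on day 6. Both groups therefore carried an adenovirus, and no liver without one was analysed here. In the treatment protocol the vectors are instead named pblockITcontrol and pblockITshRaly, but grouping here follows the treatment tag. Whether each sample is a separate mouse is not stated in the labels, so p-values reflect only the scatter of these samples, part of which may be technical. Each sample was hybridised to 1 one-colour Agilent array, and the number of arrays limits the precision.

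The 75th percentile of the signal before scaling was 381 to 448 on AdLeXis arrays and 220 to 297 on AdGFP arrays, and scaling removed this difference. Differences below are therefore relative to the signal of each array as a whole. Before scaling, only Isg15 was lower on every AdLeXis array than on every AdGFP array, by the brightest probe of each effector. It ran from 16033 to 29722.5 in AdLeXis and from 31735 to 61017 in AdGFP. Usp18 ran from 6949 to 11034 in AdLeXis and from 5869 to 11112 in AdGFP, and Mx1 from 750 to 1040 and from 694 to 1053. All AdLeXis arrays lay in row 2 of the slide and all AdGFP arrays in row 1, so slide row and group cannot be told apart. A reverse-strand lincRNA probe on chromosome 4 (mm9, 53218021 to 53218080), from the region between Abca1 and Mexis, was well above background on all 4 AdLeXis arrays and on 0 of 4 AdGFP arrays. It was at least 201-fold higher in AdLeXis (limma over all probes, adjusted p = 4.89e-07).

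Interferons bind receptors at the cell surface. At the type I interferon receptor the kinases JAK1 and TYK2 then activate transcription factors. Type I interferon acts through the complex ISGF3, which binds the interferon-stimulated response element (ISRE) in the promoters of effector genes. The effectors act on viral RNA, viral proteins or host proteins. Liver cells, among them hepatocytes, Kupffer cells and lymphocytes, express them after exposure to viruses, adenoviral vectors included.

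The promoters of the effectors are shown because the ISRE is the element through which these genes are known to respond. RefSeq promoter windows (build GRCm38.p6) matched 7 of the 10 genes. The letters GAAA, any 2 bases and GAAA again, the core of an ISRE, were searched on both strands in the 200 bases upstream of the annotated start, and matches were allowed to overlap. Such a match stood in 4 of the 7 genes, or 4 of their 8 windows, against 2.27% of the 32851 promoter windows in the table. The 4 windows are printed 5′ to 3′ on the strand of the gene, with the matches in capitals: Isg15 on the minus strand of chr4:156200819-156201018, Ifit1 on the plus strand of chr19:34640689-34640888, Ifit3 on the plus strand of chr19:34583329-34583528 and Rsad2 on the minus strand of chr12:26456453-26456652.
Isg15: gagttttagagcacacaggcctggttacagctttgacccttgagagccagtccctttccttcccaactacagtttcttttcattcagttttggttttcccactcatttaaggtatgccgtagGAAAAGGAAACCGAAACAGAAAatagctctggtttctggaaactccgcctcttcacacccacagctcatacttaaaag
Ifit1: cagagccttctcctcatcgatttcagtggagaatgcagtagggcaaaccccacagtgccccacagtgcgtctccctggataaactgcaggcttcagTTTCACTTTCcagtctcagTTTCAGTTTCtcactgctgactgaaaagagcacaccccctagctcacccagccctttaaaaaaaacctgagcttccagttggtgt
Ifit3: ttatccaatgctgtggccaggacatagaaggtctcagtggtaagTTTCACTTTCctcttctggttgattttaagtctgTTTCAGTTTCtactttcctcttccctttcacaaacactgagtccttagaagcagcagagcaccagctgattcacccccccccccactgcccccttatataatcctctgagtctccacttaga
Rsad2: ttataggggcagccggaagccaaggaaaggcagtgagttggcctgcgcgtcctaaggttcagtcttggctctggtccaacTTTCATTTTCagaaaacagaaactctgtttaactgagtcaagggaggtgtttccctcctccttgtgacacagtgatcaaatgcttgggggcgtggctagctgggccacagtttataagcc
In Isg15 the 3 matches overlap and form 1 run that begins 78 bases upstream of the start. In Ifit1 the 2 matches begin 104 and 85 bases upstream, and in Ifit3 they begin 156 and 122 bases upstream. Rsad2 holds 1 match, 120 bases upstream. The windows of Ifi44, Cmpk2 and Ifit2 hold none of these letters, which says nothing about binding there or elsewhere. A match is a description of the sequence and not a site shown to be bound.

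Of the 10 effectors, 8 fell in AdLeXis livers and 0 rose (limma, adjusted p under 0.05), where 8.79% of all genes tested fell and 8.73% rose (2102 and 2088 genes; 2673 and 1152 when arrays were scaled on the median). The other two, Rsad2 and Mx2, had lower means in AdLeXis and did not pass. At an unadjusted p under 0.05 the counts were 10 lower and 0 higher, where 16% of all genes were lower and 16.1% higher. The median difference over the 10 genes was -0.94 on the log2 scale, against -0.0022 over all genes tested. In 8 of the 10 genes all 4 AdLeXis arrays lay below all 4 AdGFP arrays, as they did in 12.3% of all genes. These are bulk samples, in which fewer cells of a type and less RNA per cell cannot be told apart. Levels below are scaled log2 signals of 1 probe per gene, differences are AdLeXis minus AdGFP on the log2 scale, adjusted p-values are from limma over 23927 genes, and arrays are named by group and replicate number. Levels of different probes are not comparable with each other.

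**Figure D1:**
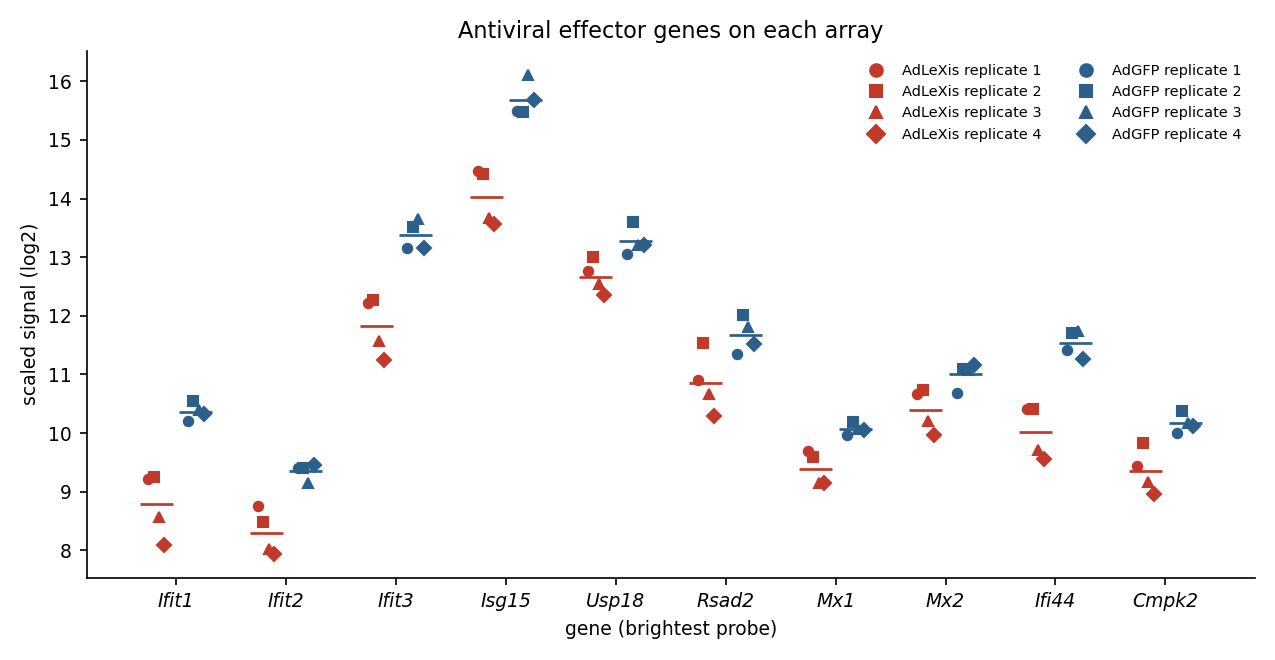
Scaled log2 signal of each antiviral effector gene on each array, with AdLeXis on the left of each pair and AdGFP on the right; points are arrays, shapes are replicate numbers and bars are group means of 4 arrays. The groups do not overlap in 8 genes, and they overlap in Rsad2 and Mx2.

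Isg15 encodes a ubiquitin-like protein that is joined to viral and host proteins and is also secreted. Its brighter probe lies on chromosome 4, 155573649 to 155573708 (mm9). Its level was 14.48, 14.43, 13.67 and 13.56 in AdLeXis livers 1 to 4, against 15.49, 15.48, 16.11 and 15.67 in AdGFP livers 1 to 4. Every AdLeXis array was below every AdGFP array, and AdLeXis 3 and 4 were the lowest. The mean was 14.03 ± 0.48 in AdLeXis and 15.69 ± 0.30 in AdGFP (SD, n = 4 each). The difference was -1.66 (SE 0.25, 95% interval -2.22 to -1.09; limma adjusted p = 0.00421), a linear ratio of 0.317. The second Isg15 probe gave -1.61 (limma over all probes, adjusted p = 0.00528). Over all probes tested, 7.16% fell and 7.69% rose.

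Usp18 (mm9 chromosome 6, 121220874 to 121220933) encodes the protease that removes ISG15 from proteins and restrains signalling at the type I interferon receptor. Its level was 12.77, 13.00, 12.54 and 12.36 in AdLeXis livers, against 13.05, 13.59, 13.21 and 13.22 in AdGFP livers. The groups did not overlap, but AdLeXis 2 lay only just below AdGFP 1. The difference was -0.60 (SE 0.17, 95% interval -0.98 to -0.22; limma adjusted p = 0.0402). This call is weak: it was lost with normexp background correction and quantile normalization together (-0.27, adjusted p = 0.325), without the filter on dim probes (0.0743), and on leaving out any 1 array other than AdLeXis 2 (adjusted p from 0.0503 to 0.0944).

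The Ifit genes encode tetratricopeptide-repeat proteins that bind foreign RNA or translation factors and so hold back viral protein synthesis. The 3 genes lie close together on chromosome 19, with probes in mm9 at 34650244 to 34650303 (Ifit2), 34663105 to 34663164 (Ifit3) and 34723796 to 34723855 (Ifit1). All 3 fell, and in each of them the groups did not overlap.

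Ifit1, whose protein binds RNA with an incompletely methylated cap, stood at 9.21, 9.26, 8.57 and 8.09 in AdLeXis livers, against 10.20, 10.55, 10.39 and 10.32 in AdGFP livers. AdLeXis 4 was the lowest array, and the AdGFP arrays lay close together. The difference was -1.58 (SE 0.25, 95% interval -2.16 to -1.004; limma adjusted p = 0.00530), a linear ratio of 0.334.

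Ifit3, whose product forms complexes with other IFIT proteins, stood at 12.22, 12.27, 11.56 and 11.25 in AdLeXis livers, against 13.16, 13.51, 13.65 and 13.16 in AdGFP livers. AdLeXis 3 and 4 were again below AdLeXis 1 and 2. The difference was -1.55 (SE 0.25, 95% interval -2.11 to -0.98; limma adjusted p = 0.00519), a linear ratio of 0.342. Mouse Ifit3 has a near-identical copy, Ifit3b, and a probe may read both, so the share of each is uncertain. The probe named Ifit3b differed by -1.58 (SE 0.32, limma adjusted p = 0.0140).

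Ifit2, an IFIT protein also known for a part in cell death, stood at 8.75, 8.48, 8.02 and 7.94 in AdLeXis livers, against 9.41, 9.40, 9.15 and 9.45 in AdGFP livers. Both groups had narrower ranges here than in Ifit1, and AdGFP 3 was the lowest of its group. The difference was -1.05 (SE 0.18, 95% interval -1.48 to -0.63; limma adjusted p = 0.00761), a linear ratio of 0.482.

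Mx1 and Mx2 encode dynamin-like GTPases that block virus replication, Mx1 in the nucleus and Mx2 in the cytoplasm in mice. Most inbred laboratory strains carry alleles of both genes that give no functional protein, and the arrays measure transcript only. The 2 genes are neighbours on chromosome 16, with probes in mm9 at 97668644 to 97668703 (Mx1) and 97782327 to 97782386 (Mx2). Mx1 stood at 9.69, 9.59, 9.14 and 9.14 in AdLeXis livers, against 9.97, 10.19, 10.07 and 10.05 in AdGFP livers. The groups did not overlap. The difference was -0.68 (SE 0.14, 95% interval -1.01 to -0.35; limma adjusted p = 0.0156).

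Mx2 stood at 10.68, 10.74, 10.21 and 9.97 in AdLeXis livers, against 10.68, 11.10, 11.08 and 11.16 in AdGFP livers. AdGFP 1 fell within the range of the AdLeXis arrays, so the groups overlapped. The difference was -0.61 (SE 0.19, 95% interval -1.04 to -0.17), which did not pass (limma adjusted p = 0.0628). This interval holds the size seen in Mx1. With normexp background correction and quantile normalization together the Mx2 difference was -0.19 (adjusted p = 0.441). Mx2 passed in 4 other settings: scaled on the median (adjusted p = 0.0449), with only probes well above background on all 8 arrays (0.0452), with a trend in the variance (0.0256) and with array weights (0.0476).

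Rsad2 encodes viperin, a radical SAM enzyme that converts CTP into a chain-terminating nucleotide, and Cmpk2, the neighbouring gene on chromosome 12, encodes a mitochondrial nucleotide kinase that can supply CTP. Their probes lie in mm9 at 27127859 to 27127918 (Rsad2) and 27164119 to 27164178 (Cmpk2). Rsad2 stood at 10.90, 11.54, 10.67 and 10.29 in AdLeXis livers, against 11.34, 12.01, 11.81 and 11.52 in AdGFP livers. AdLeXis 2 lay above AdGFP 1, so the groups overlapped. The difference was -0.82 (SE 0.26, 95% interval -1.43 to -0.22), which did not pass (limma adjusted p = 0.0657). Without AdLeXis 2 it was -1.05 and passed (adjusted p = 0.0199). It also passed with quantile normalization (adjusted p = 0.0495), with only probes well above background on all 8 arrays (0.0466) and with a trend in the variance (0.0257).

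Cmpk2 stood at 9.44, 9.83, 9.16 and 8.97 in AdLeXis livers, against 10.00, 10.37, 10.16 and 10.12 in AdGFP livers. The groups did not overlap. The difference was -0.81 (SE 0.18, 95% interval -1.23 to -0.39; limma adjusted p = 0.0197), close to that of Rsad2 and with a smaller error. The call was lost without AdGFP 2 (-0.74, adjusted p = 0.0523). The second Cmpk2 probe gave -1.07 (limma over all probes, adjusted p = 0.0383).

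Ifi44 (mm9 chromosome 3, 151394035 to 151394094) is an interferon-induced gene of less settled function. It stood at 10.40, 10.41, 9.72 and 9.56 in AdLeXis livers, against 11.41, 11.70, 11.74 and 11.27 in AdGFP livers. The groups did not overlap, and their nearest arrays were AdLeXis 2 and AdGFP 4. The difference was -1.50 (SE 0.22, 95% interval -2.01 to -0.996; limma adjusted p = 0.00398), a linear ratio of 0.352.

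**Figure D2:**
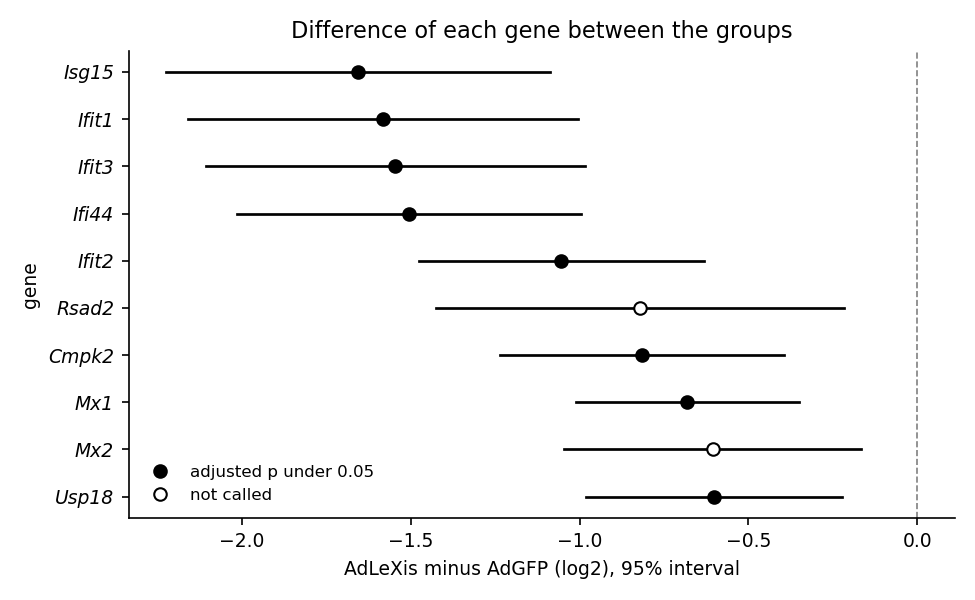
Difference between AdLeXis and AdGFP (log2, x axis) of each antiviral effector gene with its 95% interval from limma; filled points passed at an adjusted p under 0.05 and open points did not. Isg15, Ifit1, Ifit3 and Ifi44 lie between -1.66 and -1.50, and the other genes between -1.05 and -0.60.

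In order of the difference, Isg15, Ifit1, Ifit3 and Ifi44 came first, between -1.66 and -1.50, followed by Ifit2 at -1.05, and then Rsad2, Cmpk2, Mx1, Mx2 and Usp18, between -0.82 and -0.60. The 45 pairs of genes were compared on their gap within each array by a two-sided exact permutation test over 70 relabellings, whose smallest possible p is 0.0286. That smallest p was reached in 22 pairs, with an adjusted p of 0.0584 over the 45, and 0 pairs passed after adjustment. The widest gap in differences was -1.05, between Isg15 and Usp18. The order is therefore a description.

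The AdLeXis arrays spread more than the AdGFP arrays in all 10 effectors, where 53.5% of all genes had the larger SD in AdLeXis. The mean of the 10 genes was 10.85, 10.95, 10.33 and 10.11 on AdLeXis arrays 1 to 4, against 11.47, 11.79, 11.74 and 11.59 on AdGFP arrays 1 to 4. AdLeXis 3 and 4 lay below AdLeXis 1 and 2 in 10 of the 10 genes, and in 14.4% of all genes. This ordering was noticed after the values were seen and carries no test. It held in 4 of 11 targets of interferon-gamma and in 0 of 15 T and NK cell markers.

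The other genes of the pathway were followed from the signal to its brakes. Of 11 interferon ligands tested, 1 fell and 0 rose (limma; 2 and 0 at an unadjusted p under 0.05), with a median difference of -0.07. The one that fell was Ifng, the interferon made by T and NK cells. It averaged 6.92 ± 0.13 in AdLeXis and 8.37 ± 0.31 in AdGFP (SD, n = 4 each), a difference of -1.46 (SE 0.15, limma adjusted p = 0.00122). Ifnb1, the type I interferon of most tissue cells, was well above background on 1 of 4 AdLeXis and 1 of 4 AdGFP arrays and was not tested. Ifna12 differed by -0.69 and did not pass (limma adjusted p = 0.0902). The interferon-alpha probes named Ifna were dim, averaging from 3.56 (Ifna11) to 5.52 (Ifna14) over the 8 arrays. Small differences there do not show that these transcripts were unchanged. The 2 probes of Ifnl3 differed by -0.21 and -0.88, and neither passed.

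Of 9 receptor chains and kinases, 1 fell and 0 rose (limma; 1 and 0 at an unadjusted p under 0.05), with a median of -0.03. Ifnar1 and Ifnar2, the chains of the type I interferon receptor, differed by -0.19 and -0.17 and did not pass. The one that fell was Tyk2 (-0.31, limma adjusted p = 0.0376). Its call was lost on leaving out any 1 of 7 of the 8 arrays. With normexp background correction and quantile normalization together Tyk2 differed by -0.01 (limma adjusted p = 0.958). The call was also lost without the filter on dim probes (limma adjusted p = 0.0748) and with a replicate block (0.0842).

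Of 9 STAT and IRF transcription factors, 3 fell and 1 rose, with a median of -0.43. Irf7, which amplifies type I interferon production and is itself induced by ISGF3, averaged 11.46 ± 0.27 in AdLeXis and 12.60 ± 0.16 in AdGFP (SD, n = 4 each), a difference of -1.14 (SE 0.15, limma adjusted p = 0.00238). Irf5, a factor of myeloid cells, fell by 0.74 on the log2 scale (limma adjusted p = 0.00225). Stat2 and Irf9, which encode subunits of ISGF3, did not pass. Stat2 differed by 0.02 (95% interval -0.22 to 0.25) and Irf9 by -0.10 (95% interval -0.36 to 0.17). Irf2, which competes with activating IRFs for their sites, was the factor that rose (0.38, limma adjusted p = 0.0352). It kept its call without AdLeXis 1 and lost it without any other single array. The call was also lost when arrays were scaled on the median (0.30, limma adjusted p = 0.107). The same held without the filter on dim probes (limma adjusted p = 0.0690) and with a replicate block (0.0592).

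Of 10 sensors of foreign RNA and DNA, 4 fell and 0 rose (limma; 6 and 0 at an unadjusted p under 0.05), with a median of -0.42. Sting1, the adaptor of cytosolic DNA sensing, fell by 0.80 on the log2 scale (limma adjusted p = 0.00231). Dhx58, the RNA sensor LGP2, fell by 0.77 (limma adjusted p = 0.0158). Of 7 feedback inhibitors, 3 fell and 0 rose (limma; 4 and 0 at an unadjusted p under 0.05). They were Socs1 (-1.24), Socs3 (-0.97) and Trim30a (-0.76), of which the SOCS proteins inhibit JAK kinases.

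Of the 3 enzymes that attach ISG15, 2 fell and 0 rose (limma; 2 and 0 at an unadjusted p under 0.05), and the median was -0.51. Herc6, the mouse ligase, averaged 7.47 ± 0.26 in AdLeXis and 8.45 ± 0.18 in AdGFP (SD, n = 4 each), a difference of -0.98 (limma adjusted p = 0.00419). Ube2l6, the conjugating enzyme, fell by 0.46, and its call was lost on leaving out AdLeXis 3, AdLeXis 4, AdGFP 1, AdGFP 2 or AdGFP 3 (adjusted p from 0.0603 to 0.0755). Uba7, the activating enzyme, differed by -0.51 and did not pass (limma adjusted p = 0.259). Its level was 11.35 on AdGFP 4, against 12.58 to 12.61 on the other AdGFP arrays. Without AdGFP 4 all 3 enzymes fell.

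Of 14 other antiviral genes tested, among them relatives of the IFIT genes, 10 fell and 0 rose (limma; 11 and 0 at an unadjusted p under 0.05), with a median of -0.55. The count was 6 without AdGFP 1 and 5 without AdGFP 2. Zbp1, a sensor of Z-form nucleic acid that can start cell death, fell by 1.33 on the log2 scale (limma adjusted p = 0.00320). Ifitm3, which blocks virus entry at endosomes, fell by 0.60, and Bst2, which tethers budding virus at the membrane, fell by 0.54. Of 9 genes of the OAS and RNase L system, which degrades RNA, 5 fell and 0 rose (limma; 6 and 0 at an unadjusted p under 0.05). Oasl2 differed by -1.80, Oasl1 by -1.13 and Oas1a by -1.06 (limma adjusted p from 0.00105 to 0.0123).

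Of 11 genes that interferon-gamma induces, 10 fell and 0 rose by limma, with a median of -1.04. At an unadjusted p under 0.05 the counts were 11 and 0. Cxcl9, a chemokine that draws T cells, averaged 13.08 ± 0.18 in AdLeXis and 14.93 ± 0.19 in AdGFP (SD, n = 4 each), a difference of -1.84 (limma adjusted p = 0.000326). Gbp2, a GTPase active against intracellular microbes, fell by 1.20 and Cxcl10 by 1.09. As background, many of the antiviral effectors respond to type I interferon and to interferon-gamma alike.

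**Figure D3:**
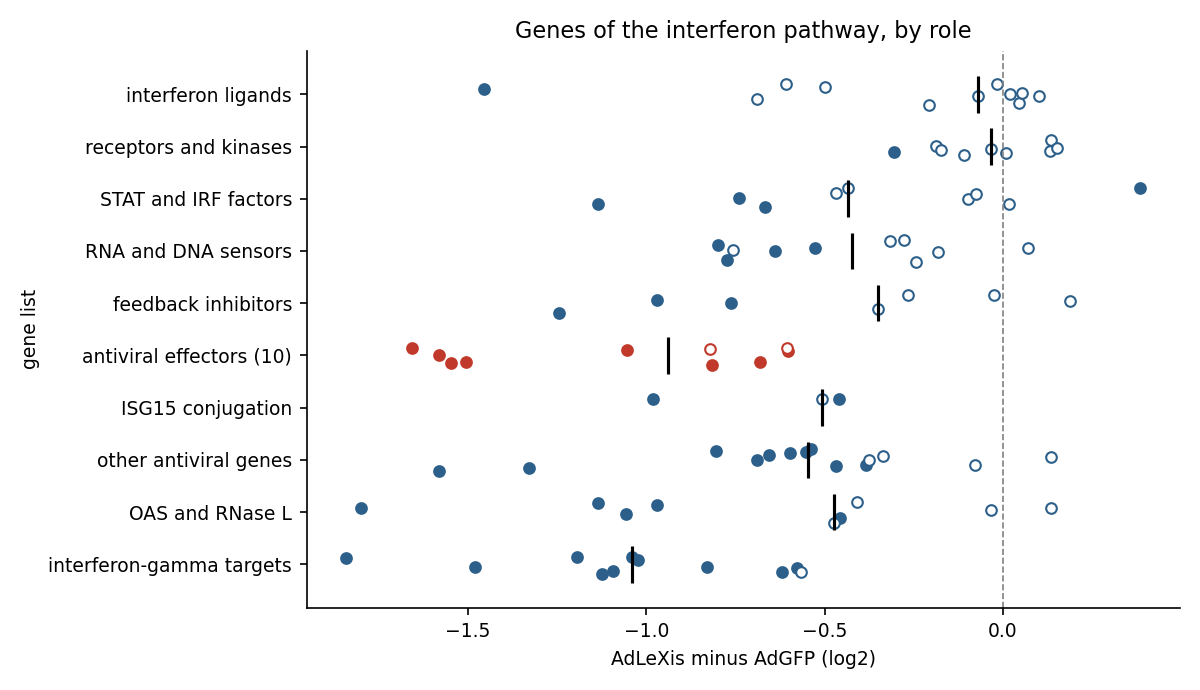
Difference between AdLeXis and AdGFP (log2, x axis) of each gene of the interferon pathway, by role; each point is a gene, filled where the adjusted p was under 0.05, and the black bar is the median of the list. The medians of ligands (-0.07) and receptors (-0.03) lie near 0, and those of the antiviral effectors (-0.94) and the interferon-gamma targets (-1.04) lie farthest below it. Most ligand probes were dim.

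Markers of cells that a liver sample can hold were read on the same arrays. Of 15 T and NK cell markers, 13 fell and 0 rose (limma; 13 and 1 at an unadjusted p under 0.05), with a median of -1.04. Their summed linear signal lay between 11039 and 11838 in AdLeXis and between 21286 and 22102 in AdGFP. The brightest probes weigh most in such a sum. Nkg7, a granule gene of NK and cytotoxic T cells, differed by -1.09 (limma adjusted p = 0.000626) and Il2rb, a receptor chain of the same cells, by -1.21 (limma adjusted p = 0.000719). Cd4, the brightest marker of the list, differed by -0.83 (limma adjusted p = 0.00235), and its call was lost when the probes of the gene were averaged (-0.31, adjusted p = 0.0534). The 2 markers that did not fall were the NK receptor genes Ncr1 and Klrb1c, named after their values were seen. Ncr1 differed by 0.73 (limma adjusted p = 0.0950) and was well above background on 4 of 4 AdLeXis and 2 of 4 AdGFP arrays, and Klrb1c differed by -0.05 (limma adjusted p = 0.914).

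Of 12 Kupffer cell and macrophage markers, 5 fell and 0 rose (limma; 9 and 1 at an unadjusted p under 0.05), and the count was 3 without AdLeXis 2, AdGFP 1 or AdGFP 2. Their summed signal, again weighted to the brightest probes, ran from 107928 to 135496 in AdLeXis and from 142487 to 179973 in AdGFP. Mpeg1, a pore-forming protein of macrophages, differed by -0.90 (limma adjusted p = 0.00134). Timd4, a dim probe of a receptor for dying cells, differed by -1.70 (limma adjusted p = 0.00962), and by -0.37 with normexp background correction and quantile normalization (adjusted p = 0.0639). Cd5l, the brightest marker of the list, differed by -0.34 and did not pass (limma adjusted p = 0.0869). The Kupffer cell markers Clec4f (0.10) and Vsig4 (0.50, limma adjusted p = 0.0937), named after their values were seen, were not lower in AdLeXis.

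Of 4 monocyte markers 3 fell and 0 rose (limma; 4 and 0 at an unadjusted p under 0.05). They were Ccr2 (-0.82), Ms4a6c (-0.74) and Plac8 (-0.58). Of 5 plasmacytoid dendritic cell markers 2 fell and 0 rose (limma; 4 and 0 at an unadjusted p under 0.05). They were Klk1 (-0.77) and Pacsin1 (-0.32), and the call of Pacsin1 was lost without AdLeXis 2, 3 or 4 or AdGFP 1, 2 or 4. Siglech, the brightest of them, differed by -0.06 and did not pass. With normexp background correction and quantile normalization it was higher in AdLeXis by 0.31 and passed (limma adjusted p = 0.0285). When the probes of the gene were averaged it differed by -0.34 and passed (limma adjusted p = 0.0444).

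Of 10 hepatocyte markers 7 fell and 0 rose (limma; 7 and 0 at an unadjusted p under 0.05), with a median of -0.42. Alb differed by -0.61, Ahsg by -0.58 and Serpina1c by -0.57. This result differed between scalings. With quantile normalization 1 of the 10 fell, the median was -0.03 and Alb differed by 0. That method gives probes of equal rank the same value on every array. It can therefore show little difference in the very brightest probes, Alb among them, and cannot decide whether Alb fell. With normexp background correction and quantile normalization 1 fell and 1 rose, and Alb differed by 0.27 (adjusted p = 0.0680). The hepatocyte sum ran from 1440360 to 1672440 in AdLeXis and from 2153180 to 2273370 in AdGFP, so the tissue label stands on a bright signal in both groups.

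Of 5 B cell, 6 neutrophil and 7 endothelial markers, 0 fell and 0 rose (limma; 0 in either direction at an unadjusted p under 0.05). The B cell markers Pax5 (-0.53), Cd79b (-0.04) and Cd79a (-0.02) did not pass, nor did the neutrophil markers S100a8 (-0.22), Retnlg (0.42), Csf3r (0.10) and S100a9 (-0.20) or the endothelial markers Stab2 (0.22), Kdr (-0.21) and Clec4g (0.13). Of 7 stellate cell markers 2 fell and 0 rose (limma; 2 and 0 at an unadjusted p under 0.05). They were Des (-0.34), whose call was lost without AdLeXis 2, 3 or 4 or AdGFP 1 or 4, and Pdgfrb (-0.55), whose call was lost on leaving out any 1 array other than AdGFP 3. The brighter Dcn (-0.11) and Col3a1 (-0.38) did not pass. Most T and NK cell markers, the interferon-gamma targets and the antiviral effectors were lower on the same 4 arrays, and the part of these cells in the result was not tested.

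**Figure D4:**
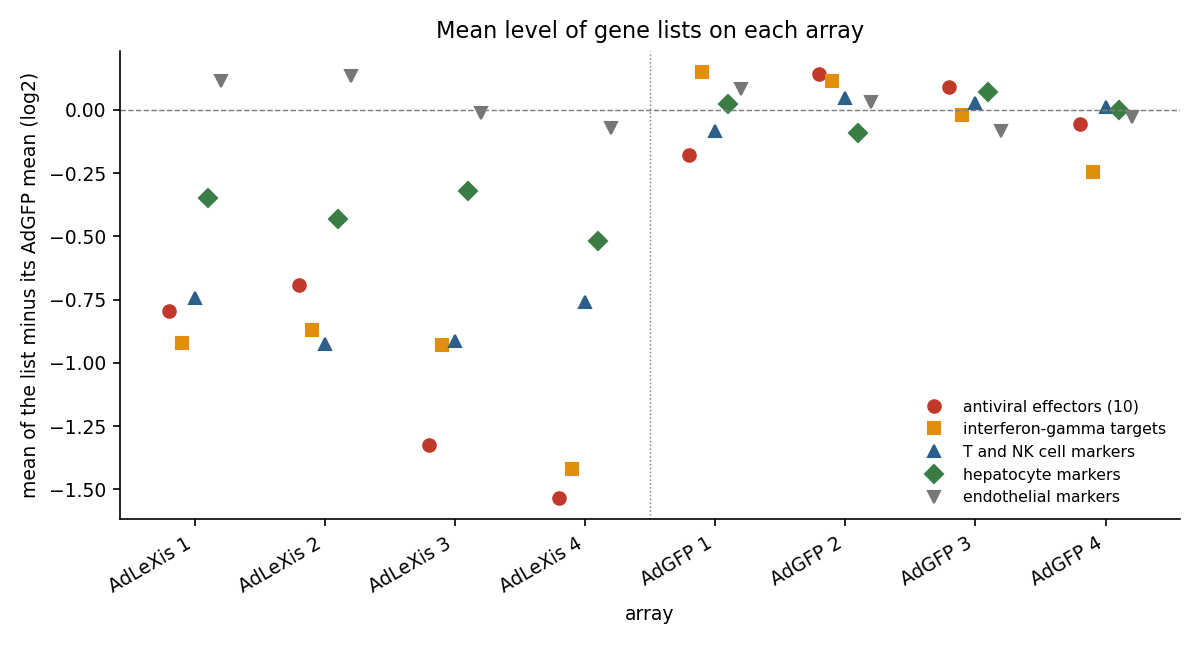
Mean scaled log2 signal of 5 gene lists on each array, minus the list's own mean over AdGFP arrays (y axis); AdLeXis arrays are on the left and AdGFP arrays on the right. The antiviral effectors lie lower on AdLeXis 3 and 4 than on AdLeXis 1 and 2, and the endothelial markers lie near 0 on every array.

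The genes most like the antiviral effectors were named by the distance between centred log2 profiles, taken as the root mean square over the 8 arrays against the mean profile of the 10 effectors. Genes named only by an identifier were left out. The nearest of the other genes was Oasl1, at 0.0818, an OAS-like gene whose own difference was -1.13. Next came Sqle (0.126), Slfn1 (0.131), Msmo1 (0.138) and Cyp51 (0.146). Sqle, Msmo1 and Cyp51 encode enzymes of cholesterol synthesis, and Slfn1 is a Schlafen-family gene. Their differences were -1.29 for Sqle, -1.04 for Slfn1, -0.92 for Msmo1 and -1.10 for Cyp51, and the call of Msmo1 was lost without AdGFP 2 or AdGFP 3 (adjusted p = 0.0502 and 0.0514). A profile of 8 arrays in 2 groups is dominated by the group difference, so this likeness is a description only. Among the effectors themselves the distance ran from 0.165 for Cmpk2 to 0.340 for Isg15.

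The differences of the 10 effectors were recomputed under 20 alternative settings of scaling, filtering, fit and left-out array. All 200 differences were below 0. Ifit1, Ifit2, Ifit3, Isg15, Mx1 and Ifi44 passed in all 20, and the number of effectors that fell ran from 6 to 10.

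**Figure D5:**
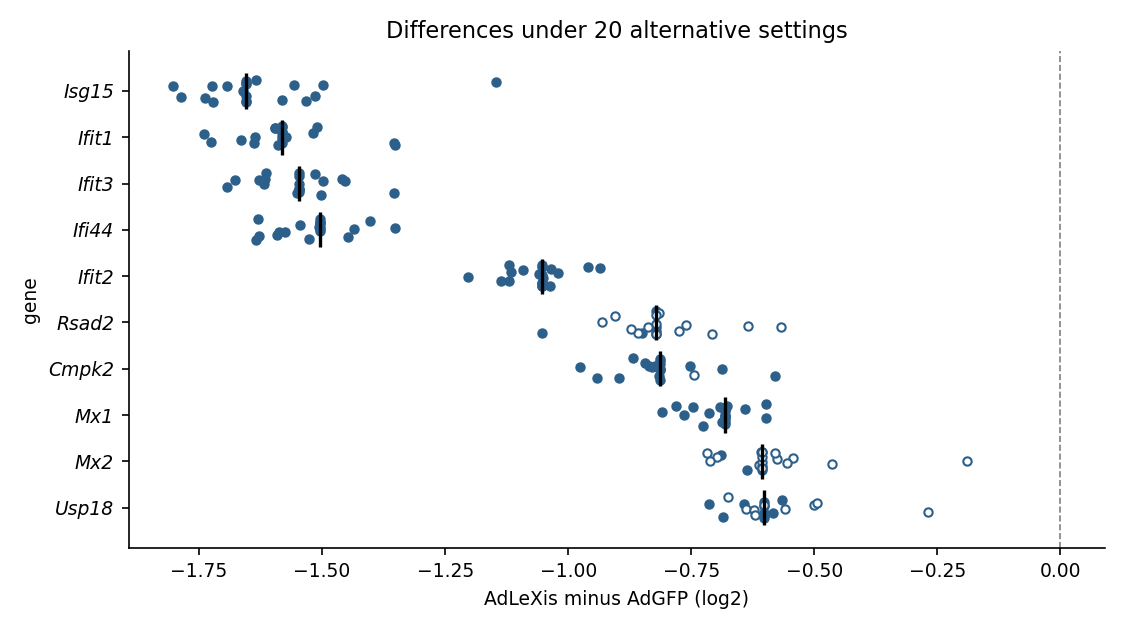
Difference between AdLeXis and AdGFP (log2, x axis) of each antiviral effector gene under 20 alternative settings; each point is a setting, filled where the adjusted p was under 0.05, and the bar is the reported value. All points lie below 0, and open points occur in Rsad2, Cmpk2, Mx2 and Usp18.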

How the data were processed

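Total liver RNA of 8 samples, 4 given AdLeXis and 4 given AdGFP, was read on one-colour (Cy3) arrays. Per the file headers, the authors' scanner output gives linear, background-subtracted intensity of each spot (Agilent Feature Extraction 11.5.1.1). Probe coordinates are mm9 per the file headers. All 8 arrays lay on 1 slide in 1 scan.

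The log2 signal of 59305 non-control spots was scaled per array to the 75th percentile. Of these, 127 to 256 outliers on each array were dropped, and repeat spots were averaged. A probe needed 4 or more arrays well above background, with 2 or more measured in either group (34468 kept), and each gene took its brightest kept probe (23927 genes). Gene names were updated through a GRCm38.p6 table: 27656 probes by accession, 3401 by symbol, 321 by synonym, with 24303 keeping the name of the file.

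Groups were compared with limma 3.58.1 in R 4.3.3, two-sided, with Benjamini-Hochberg adjustment at 0.05. In simulated data of this comparison (23927 genes), 18 of 67 genes changed 1.5-fold, 45 of 67 changed 2-fold and 61 of 66 changed 4-fold were recovered. No other gene was changed, so far fewer genes differed than in the data. The adjustment is stricter in that case, and recovery in the data may differ. The LeXis probe's bound sets the AdLeXis mean against the lowest signal of spots well above background.

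The effectors, the 9 pathway lists and the 9 cell marker lists were chosen with earlier results of these data known. Lists are described by counts and medians, with no test of a list. Named are all 10 effectors, genes of the pathway lists, and the 2 genes of smallest p and 2 brightest of each cell list. The 5 nearest profiles are named too, with genes named only by an identifier left out. Markers named outside this rule are said to be. Alternatives were other scalings and background corrections, filters, fits, a replicate block and leaving out each array. Some genes of the lists are counted but not reported by name here.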

Additional observations from a re-analysis of the deposited data

Results flagged for a closer look

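In 22 groups of 4 arrays (each of the 10 effectors and their mean, in both treatments), the highest and lowest array were set against the rest by Dixon's test, which marks about 1 group in 20 by chance. It marked 2. For Ifit2, AdGFP 3 stood at 9.15, apart from the other AdGFP arrays at 9.40 to 9.45. For Mx2, AdGFP 1 stood at 10.68, apart from the other AdGFP arrays at 11.08 to 11.16.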

How the results depend on the processing

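The median difference of the 10 effectors ran from -1.08 to -0.81 over all 20 alternatives, and leaving out 1 array at a time gave 6 to 9 effectors that fell. Over all genes, 2102 fell and 2088 rose. Leaving out 1 array gave 1286 to 2064 that fell and 1201 to 2053 that rose, with fewer arrays in the fit. Scaled on the median instead of the 75th percentile, 2673 genes fell and 1152 rose, and the number of effectors that fell was 9. The direction turned for Alb (0.27), Fgb (0.33) and Siglech (0.31) with the normexp correction and quantile normalization. For Ttr it turned with quantile normalization alone (0.0029). Quantile normalization draws the brightest probes of all arrays to like values, and the cause of each turn was not tested. Same-numbered arrays shared a slide column. They deviated together only weakly (correlations 0.0011 to 0.117, against -0.0996 to 0.100 for arrays of different number). Such weak correlations cannot decide whether the numbers pair the samples. With a replicate block, 1624 genes fell and 1516 rose, and 9 effectors fell, Rsad2 among them (-0.82, adjusted p = 0.0429). The series value table held the same signals and gave the same values. Of the 200 effector results, 181 kept their side of the threshold, 10 lost a call and 9 gained one. Rsad2 also passed with quantile normalization (adjusted p = 0.0495). Changes near 1.5-fold were seldom recovered in simulated data at this number of arrays. Far fewer genes were changed there than fell or rose in the data, so recovery in the data may differ.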
